A study of Mus musculus with 24 samples.

Results

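The Rtl1 antisense miRNAs are a run of small RNAs on chromosome 12 of the mouse, encoded on the strand opposite to the coding sequence of Rtl1, a gene of the imprinted Dlk1-Dio3 domain. They were taken from the deposited table of mature miRNA loci by position alone, as the plus-strand rows that start within an interval around Rtl1, and rows of the other strand were left out. The rule gave 13 rows of 2045, and 11 of them are arms of the 6 hairpins miR-431, miR-433, miR-127, miR-434, miR-432 and miR-136. The remaining 2 rows belong to the hairpin Mir3070b, which lies beside Rtl1 and outside its exons. The small RNA libraries were made from the subcutaneous adipose tissue of female mice, kept at 22 C on a 12 hour light and 12 hour dark cycle and fed chow. The 24 libraries fall into 4 groups of 6, which are KinaseDead trained, KinaseDead sedentary, WildType trained and WildType sedentary. Trained animals ran on a motorised treadmill at 16 m/min for 1 hour a day, 5 days of each week over 6.5 weeks, and could also use a running wheel. The labels do not name the inactive kinase of KinaseDead mice, the age of the animals or the fat depot, and do not say whether sedentary mice had a wheel. The series asks what training does to miRNA levels in this tissue.

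Imprinted genes are expressed from the copy inherited from only 1 parent. In this domain the paternal copy expresses protein-coding genes, among them Dlk1, an inhibitor of adipocyte differentiation, and Rtl1, a gene derived from a retrotransposon that the mouse placenta needs for its fetal capillaries. The maternal copy expresses long noncoding transcripts that carry many miRNAs and snoRNAs, and one of these transcripts runs antisense to Rtl1. Because its miRNAs are cut from the reverse strand of the Rtl1 coding sequence, they pair with Rtl1 mRNA along their whole length, and in mouse embryos they are known to direct its cleavage. Each hairpin can give a mature miRNA from its 5p arm and one from its 3p arm, and bases 2 to 8 of a mature miRNA, the seed, take the largest part in pairing with other mRNAs.

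The more abundant arm of each measured hairpin, and the second arm of miR-434 and miR-136, because the arm ratios of these hairpins are set against each other, are given here 5′ to 3′ with the seed in capitals. The sequences are those of RefSeq on GRCm38.p6.
miR-136-5p: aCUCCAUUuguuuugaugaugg
miR-136-3p: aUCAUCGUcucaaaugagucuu
miR-434-5p: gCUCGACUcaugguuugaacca
miR-434-3p: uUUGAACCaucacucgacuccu
miR-127-3p: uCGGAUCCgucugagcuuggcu
miR-433-3p: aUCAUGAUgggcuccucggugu
miR-431-5p: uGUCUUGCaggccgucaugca
The 13 rows had 13 distinct seeds, so they form no seed family. Outside the 13 rows, 1 other mouse miRNA in the RefSeq table had the seed of a member, namely miR-3070-3p with that of miR-3070-2-3p. The arms of miR-434 shared a run of 9 bases, uuugaacca, which ends miR-434-5p and begins miR-434-3p. The arms of miR-431 shared a run of 10 bases, gucuugcagg. The miR-136 arms had the lowest GC content of the set, 36.4% each, against 59.1% in miR-127-3p.

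A search of the Rtl1 transcript of GENCODE M21 found the full reverse complement of each of the 11 arms, each at 1 place. The stretch that pairs with miR-127-3p is shown, with the letters facing the seed in capitals, because miR-127-3p was the most abundant arm.
Rtl1 stretch facing miR-127-3p: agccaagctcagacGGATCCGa
Rtl1 lies on the minus strand of chromosome 12 at 109589193 to 109600330 in the build of the files (mm10, GRCm38), and its transcript of 6358 bases has 2 exons. All 11 stretches were in its coding sequence. Counted from the 5′ end of the transcript, they began at base 164 for miR-136-3p, 199 for miR-136-5p, 523 for miR-432, 965 for miR-434-3p, 1002 for miR-434-5p, 2642 for miR-127-3p, 2676 for miR-127-5p, 3749 for miR-433-3p, 3801 for miR-433-5p, 5028 for miR-431-3p and 5072 for miR-431-5p. Neither Mir3070b row had such a stretch. In genome coordinates, miR-127-3p is chr12:109592888-109592909 on the plus strand, miR-434-5p is chr12:109594528-109594549 and miR-136-3p is chr12:109595366-109595387. On the minus strand, facing miR-136, lies the hairpin of miR-3071. The counts did not separate these strands, since miR-136-3p had 33926 reads and miR-3071-5p 33919, with equal counts in 21 of 24 libraries and a largest difference of 5 reads. For miR-136-5p and miR-3071-3p the totals were 3690 and 3693 reads, again equal in 21 of 24 libraries. The values below are given under miR-136, and which of the 2 hairpins the reads came from cannot be told apart.

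Library totals ran from 1.601 to 23.593 M reads, and the 13 rows took between 0.129% and 0.334% of them. The highest share was in WildType sedentary library 4, which was also the shallowest library. In 7 libraries the lymphocyte miRNA miR-150-5p was above 2000 CPM (read counts scaled to a common library total, with the TMM factors of edgeR). These were 2 KinaseDead trained, 2 KinaseDead sedentary, 2 WildType trained and 1 WildType sedentary library. The sum of the 4 lymphocyte miRNAs in the marker list (miR-150-5p, miR-142a-5p, miR-142a-3p and miR-155-5p) ran from 1390 to 20600 CPM in KinaseDead trained, from 1740 to 21200 CPM in KinaseDead sedentary, from 1460 to 19700 CPM in WildType trained and from 1630 to 21700 CPM in WildType sedentary libraries. The summed members were 1269 to 2261 CPM in those 7 libraries, with a median of 1404 CPM, and 1422 to 3207 CPM in the other 17, with a median of 1774 CPM. The sum of the 4 striated muscle miRNAs (miR-1a-1-3p, miR-133a-1-3p, miR-206-3p and miR-499-5p) differed between the groups in its median, which was 592 CPM in KinaseDead trained (360 to 1200), 417 CPM in KinaseDead sedentary (236 to 4180), 1810 CPM in WildType trained (545 to 3130) and 758 CPM in WildType sedentary libraries (344 to 3720). The sum of the 3 red blood cell miRNAs had medians of 2590, 1910, 2220 and 2670 CPM in the same order of groups, and ran from 1260 to 9290 CPM over all libraries. The muscle median was higher in the trained group of both genotypes, with overlapping ranges, and the part of muscle or blood in the training comparisons was not tested. The 5 epithelial miRNAs summed to between 11800 and 22300 CPM. Of the 2 nerve markers, miR-9-5p ran from 16.1 to 57.7 CPM, while the locus miR-124a-1-3p ran from 0 to 3.02 CPM. The liver marker miR-122-5p ran from 4.35 to 423 CPM. The 3 miRNAs listed for adipose tissue, miR-143-3p, miR-148a-3p and miR-378a-3p, summed to between 126000 and 241000 CPM. In bulk tissue, fewer cells of a type and less RNA per cell cannot be told apart.

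Reads were spread unevenly over the 6 hairpins. miR-127-3p held 262635 reads, 70.8% of all reads of the 13 rows. It was followed by miR-136-3p with 33926 reads (9.14%), miR-434-5p with 33450 (9.01%), miR-434-3p with 16850 (4.54%) and miR-127-5p with 15175 (4.09%). miR-136-5p, miR-433-3p, miR-431-5p and miR-431-3p had 3690, 3618, 1388 and 414 reads. miR-433-5p had 53 reads, with at least 1 in 16 of 24 libraries. The Mir3070b rows had 1 read (5p) and 6 reads (3p). miR-432 had 0 reads in every library. The 95% upper limit for a count of 0 is about 3 reads. These stand for 0.127 CPM in the deepest and 1.87 CPM in the shallowest library. That limit covers counting error only. The filter on low counts kept 654 of 2045 features and 9 of the 13 rows, leaving out miR-432, miR-433-5p and both Mir3070b rows.

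**Figure D1:**
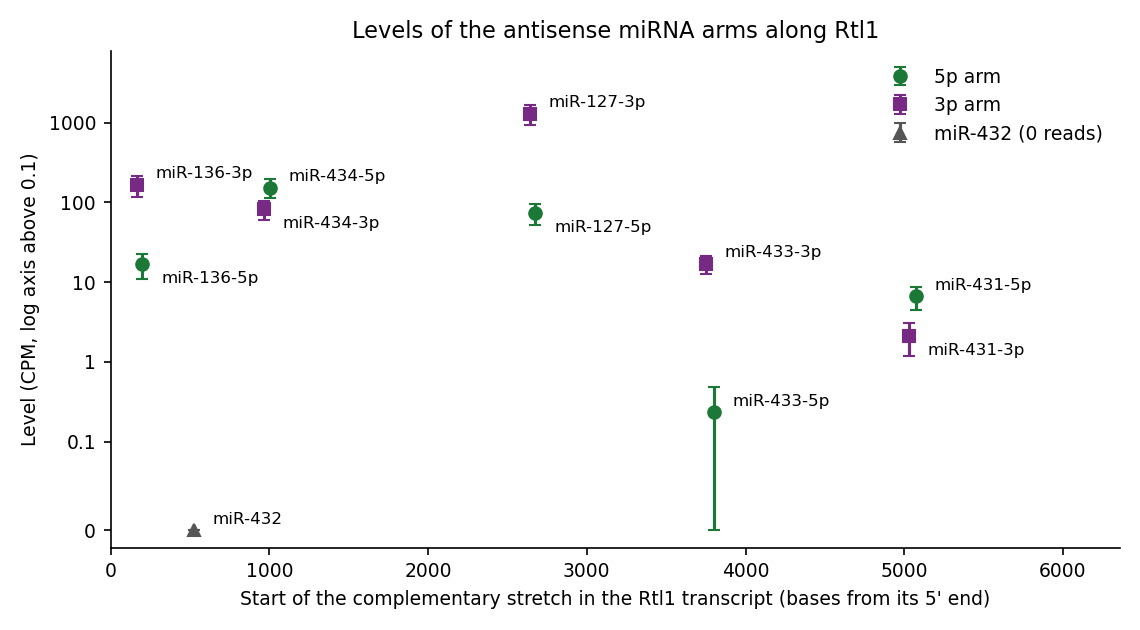
Mean level of each arm in CPM (points, bars give the SD over 24 libraries, cut at 0) against the place in the Rtl1 transcript, in bases from its 5′ end, that it pairs with. Green circles are 5p arms and purple squares 3p arms. miR-127-3p, facing the stretch that begins at base 2642, stands above all others, and miR-432 is at 0.

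Set per base of locus, since loci are 21 to 23 bases long, the order of the levels was the same as in CPM. miR-127-3p averaged 59.1 ± 16.1 CPM per base (SD, n = 24), 7.77 times miR-136-3p, and its lowest library was above the highest of miR-136-3p. miR-136-3p averaged 7.61 ± 2.25 and miR-434-5p 6.98 ± 1.85 CPM per base, and miR-136-3p was the higher in 11 of 24 libraries, so their order differed between libraries. miR-434-3p at 3.72 ± 0.959 and miR-127-5p at 3.34 ± 0.968 CPM per base overlapped, with miR-434-3p higher in 20 of 24 libraries. miR-127-5p did not overlap with the next in order, miR-433-3p. miR-433-3p at 0.774 ± 0.206 and miR-136-5p at 0.769 ± 0.264 CPM per base traded places, with miR-433-3p higher in 12 of 24 libraries. miR-431-5p came after them at 0.316 ± 0.101 CPM per base and miR-431-3p at 0.096 ± 0.0424.

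The dominant arm was 3p in some hairpins and 5p in others. Over all libraries the 5p arm made up 77.0% of the reads of the miR-431 hairpin, from 61.9% to 85.9% by library, and 66.5% of those of miR-434, from 51.5% to 74.7%. It made up 9.81% in miR-136, from 3.51% to 15%, and 5.46% in miR-127, from 4.21% to 7.01%. In miR-433 it was 1.44%, from 0.0% to 5.6%. The lesser arms of miR-433 and miR-431 had only 53 and 414 reads in all, so the ranges of these hairpins also hold counting error.

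miR-127-3p, which is known to repress BCL6 in human cells, had the following CPM as lowest, median and highest library: 889.8, 1115 and 1524 in KinaseDead trained, 1152, 1271 and 1647 in KinaseDead sedentary, 900.7, 1075 and 1452 in WildType trained, and 1030, 1290 and 2435 in WildType sedentary. The 4 ranges overlapped, and WildType sedentary libraries 4 and 5, at 2435 and 1942 CPM, were above every library of the other groups. The group means were 1182 ± 258 CPM in KinaseDead trained, 1368 ± 212 in KinaseDead sedentary, 1137 ± 217 in WildType trained and 1514 ± 560 in WildType sedentary (SD, n = 6 each).

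miR-136-3p had 106.4, 159.1 and 253.7 CPM as lowest, median and highest library in KinaseDead trained, 135.6, 157.3 and 189.4 in KinaseDead sedentary, 113.4, 152.4 and 219.8 in WildType trained, and 126.3, 156.6 and 295.5 in WildType sedentary. The 4 medians lay between 152.4 and 159.1 CPM, and the same WildType sedentary libraries 4 and 5 were the highest of all.
miR-434-5p had 73.0, 137.4 and 204.3 CPM in KinaseDead trained, 133.3, 169.9 and 245.2 in KinaseDead sedentary, 110.7, 151.3 and 185.5 in WildType trained, and 101.9, 155.5 and 188.9 in WildType sedentary. Here the highest library was a KinaseDead sedentary one, and the 2 lowest were KinaseDead trained libraries 6 and 2, at 73.0 and 79.2 CPM.

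miR-433-3p, which represses the osteoblast factor Runx2 in mouse mesenchymal cells, had 13.7, 17.1 and 25.5 CPM in KinaseDead trained, 13.1, 14.8 and 23.1 in KinaseDead sedentary, 10.5, 18.03 and 22.98 in WildType trained, and 11.4, 14.5 and 24.6 in WildType sedentary. All 4 ranges overlapped, and both trained groups had the higher median of their genotype.
miR-431-5p, which represses Pax7 in mouse muscle satellite cells, had 4.46, 5.76 and 6.81 CPM in KinaseDead trained, 4.38, 6.64 and 9.13 in KinaseDead sedentary, 3.58, 6.08 and 8.67 in WildType trained, and 4.14, 7.55 and 13.8 in WildType sedentary. WildType sedentary library 4 was again the highest, and the rest of the libraries overlapped between groups.

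**Figure D2:**
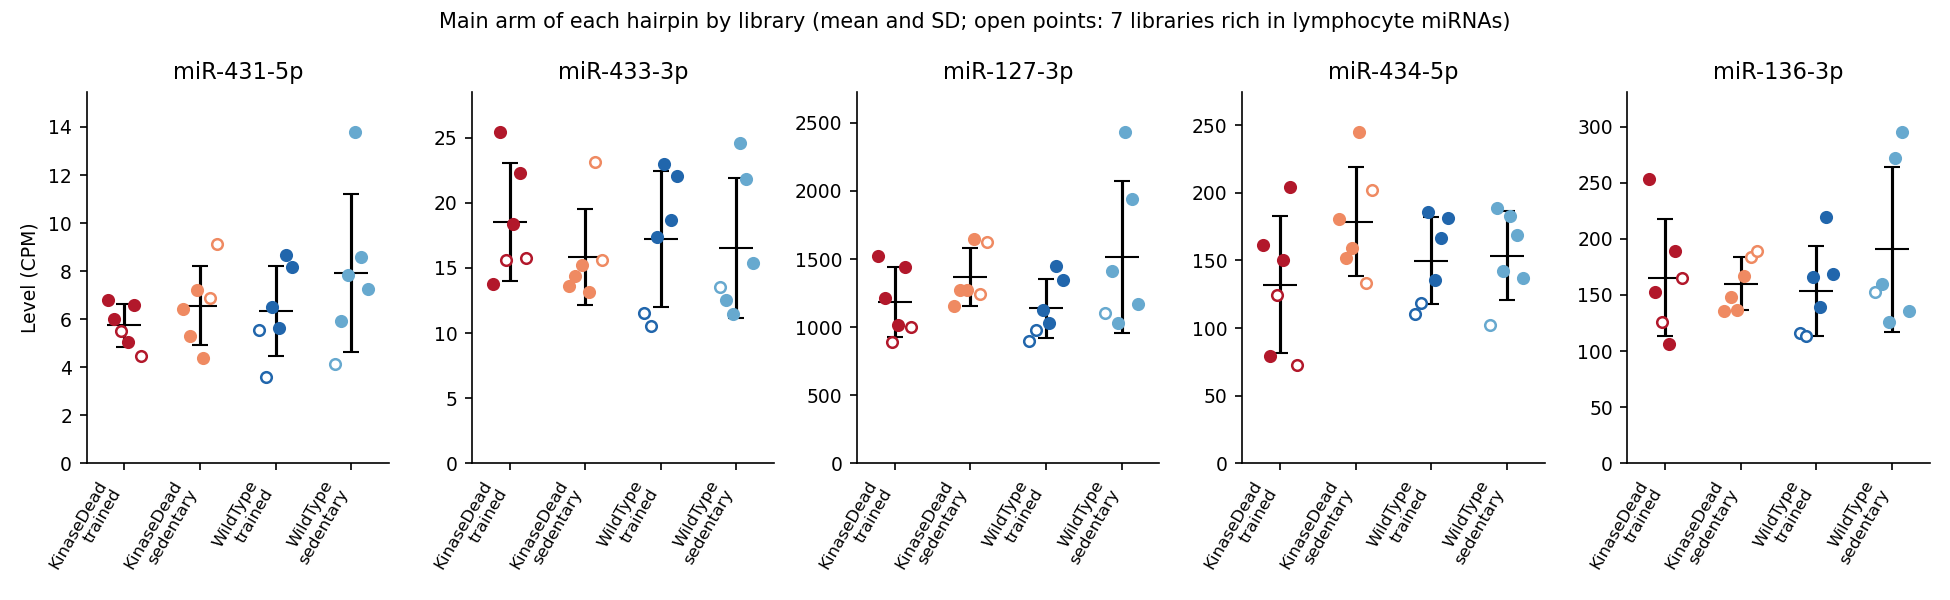
CPM of the more abundant arm of each hairpin in every library (points), with group mean and SD (bars), on linear axes from 0. Open points are the 7 libraries with miR-150-5p above 2000 CPM. The groups overlap in all 5 panels, and the highest miR-127-3p values, 2435 and 1942 CPM, are from WildType sedentary libraries.

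The lesser arms were lower but in the same ranges between groups. miR-127-5p averaged 73.3 ± 24.7 CPM in KinaseDead trained, 76.0 ± 14.9 in KinaseDead sedentary, 62.4 ± 17.4 in WildType trained and 82.5 ± 26.4 in WildType sedentary. miR-434-3p averaged 77.1 ± 19.97, 82.3 ± 9.56, 75.9 ± 19.9 and 92.3 ± 31.0 CPM in the same order of groups. miR-136-5p averaged 13.1 ± 5.74 CPM in KinaseDead trained, 19.5 ± 3.48 in KinaseDead sedentary, 17.9 ± 7.08 in WildType trained and 17.1 ± 5.75 in WildType sedentary. miR-431-3p averaged 2.10 ± 1.19, 2.16 ± 0.425, 1.70 ± 0.761 and 2.49 ± 1.201 CPM in that order.

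Training in KinaseDead mice was compared first, by edgeR's quasi-likelihood test in 1 fit of all 4 groups, with Benjamini-Hochberg adjustment over the 654 features. Of the 9 arms, 0 passed an adjusted p of 0.05, as did 0.0% of all features, and 0 had an unadjusted p under 0.05, against 2.6% of all features (17 of 654). DESeq2 called 0 features too and had 17 at an unadjusted p under 0.05. The fold changes of 7 arms were below 0 and those of 2 above, with a median log2 fold change of -0.09, beside -0.02 over all 654 features. The 2 arms furthest from 0 were miR-136-5p at -0.55 (SE 0.29, adjusted p = 0.997) and miR-434-5p at -0.43 (SE 0.23, adjusted p = 0.997). For miR-434-5p, 5 of 6 trained libraries were below the sedentary median, and for miR-136-5p 4 of 6. The other arms of the same hairpins were nearer 0, with miR-136-3p at 0.05 (95% interval -0.43 to 0.52) and miR-434-3p at -0.09 (-0.52 to 0.33). miR-127-3p was at -0.21 (-0.62 to 0.20) and miR-433-3p at 0.22 (-0.25 to 0.69). Single libraries moved both. miR-127-3p ran from -0.32 without KinaseDead trained library 1 to -0.12 without KinaseDead trained library 3. miR-433-3p ran from 0.065 without KinaseDead trained library 2 to 0.30 without KinaseDead sedentary library 5. Without the 7 lymphocyte-rich libraries, added after the data were seen, miR-127-3p was at -0.05 and miR-434-5p at -0.30. In that setting miR-431-5p, miR-431-3p, miR-127-5p and miR-434-3p turned from below 0 to above it.

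Training in WildType mice gave the same count. Of the 9 arms, 0 passed an adjusted p of 0.05, as did 0.0% of all features, while 1 arm had an unadjusted p under 0.05, against 5.81% of all features (38 of 654). DESeq2 called 0 features and had 41 at an unadjusted p under 0.05, none of them a member. The median log2 fold change of the 9 arms was -0.28, with 7 of 9 below 0, beside -0.01 over all 654 features. miR-127-3p was at -0.41 (SE 0.20, 95% interval -0.82 to -0.005, unadjusted p = 0.0476, adjusted p = 0.831), with 4 of 6 trained libraries below the sedentary median. That value was -0.22 without WildType sedentary library 4, the shallowest library, and -0.49 without WildType sedentary library 3. It was -0.34 without the 7 lymphocyte-rich libraries. miR-127-5p was at -0.40 (-0.88 to 0.08), miR-136-3p at -0.31 (-0.78 to 0.17), miR-434-3p at -0.28 (-0.70 to 0.15) and miR-431-5p at -0.27 (-0.78 to 0.23). miR-434-5p at -0.03 (-0.50 to 0.43), miR-136-5p at 0.06 (-0.53 to 0.66) and miR-433-3p at 0.07 (-0.40 to 0.54) lay closest to 0. miR-431-3p, the scarcest arm tested, had the lowest value and the widest interval, -0.43 (-1.18 to 0.32). Without WildType sedentary library 4, miR-431-5p was at -0.072, miR-434-3p at -0.11 and miR-431-3p at -0.21. At the other end, miR-431-5p was at -0.40 and miR-434-3p at -0.36 without WildType sedentary library 1. miR-431-3p was at -0.60 without WildType trained library 3. miR-136-3p was at -0.14 without WildType sedentary library 5, and miR-127-5p at -0.26 without WildType trained library 4. Leaving out WildType sedentary library 3 put them at -0.39 and -0.48.

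**Figure D3:**
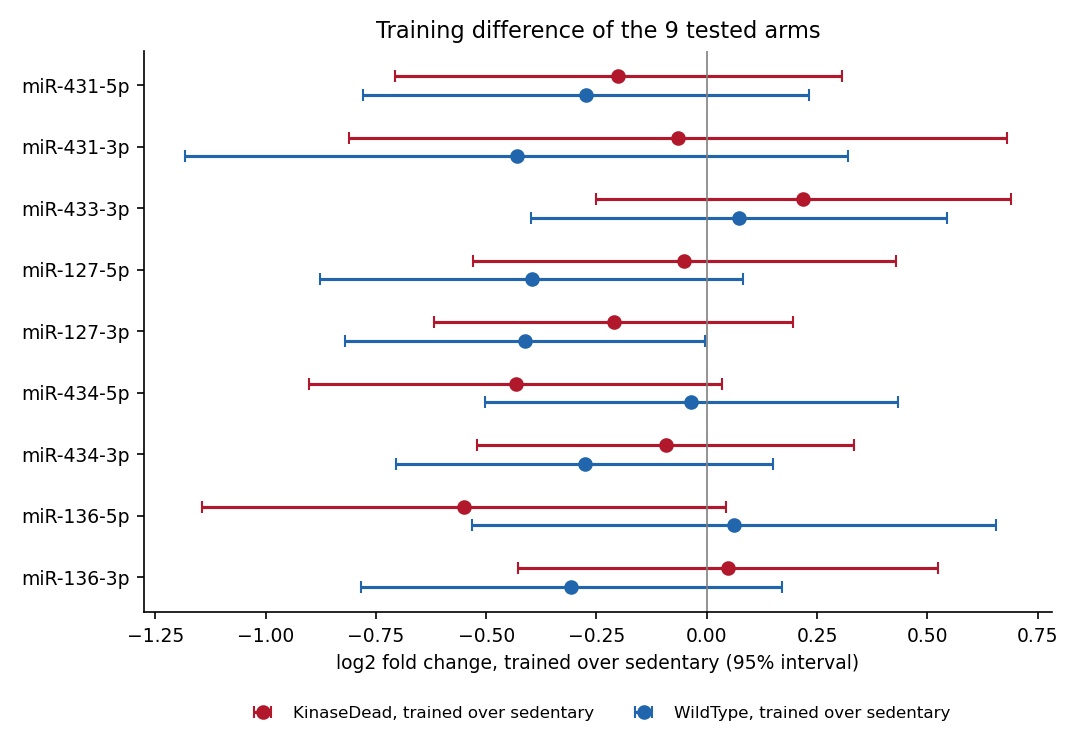
Log2 fold change of trained over sedentary libraries for the 9 tested arms in KinaseDead (red) and WildType (blue) mice, with 95% intervals from the edgeR fit. Of the 18 intervals, 1 leaves out 0, that of miR-127-3p in WildType mice, and no adjusted p is under 0.05.

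Averaged over both genotypes, 8 of 9 arms were below 0 and miR-433-3p was above it, at 0.15 (SE 0.16). Leaving out 1 library, miR-433-3p ran from 0.066 (KinaseDead trained library 2) to 0.22 (WildType trained library 1). The median of the 9 arms was -0.23, beside -0.01 over all features. Again 0 of 9 passed an adjusted p of 0.05 by edgeR, as did 0.0% of all features, and 1 had an unadjusted p under 0.05, against 5.66% of all features (37 of 654). DESeq2 called 0 features and had 41 at that unadjusted level, 1 of them a member. The arm was miR-127-3p at -0.31 (SE 0.14, 95% interval -0.60 to -0.02, unadjusted p = 0.0351, adjusted p = 0.808). It was -0.21 without WildType sedentary library 4, -0.38 without WildType sedentary library 3 and -0.20 without the 7 lymphocyte-rich libraries.

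The difference between the training effects in KinaseDead and WildType mice, the interaction, was tested in the same fit. Of the 9 arms, 0 passed an adjusted p of 0.05 in edgeR, as did 0.0% of all features, and 0 had an unadjusted p under 0.05, against 1.99% of all features (13 of 654). DESeq2 called 0 features, with 14 at the unadjusted level. The interaction was above 0 for 7 arms and below it for 2, and those 2 were miR-136-5p at -0.61 (95% interval -1.45 to 0.23) and miR-434-5p at -0.40 (-1.06 to 0.26). miR-136-3p was at 0.36 (-0.32 to 1.03), miR-127-5p at 0.35 (-0.33 to 1.02) and miR-127-3p at 0.20 (-0.37 to 0.78). Single left-out libraries put miR-127-3p between 0.013 (WildType sedentary library 4) and 0.26 (WildType sedentary library 6). They put miR-136-3p between 0.089 (KinaseDead trained library 1) and 0.45 (KinaseDead trained library 4). For miR-127-3p the interval covers a training fold in KinaseDead mice of 0.771 to 1.71 times that in WildType mice, so the test does not show that the effects were alike.

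Genotype was compared within each training state. These comparisons share their libraries with the training comparisons above. In sedentary mice, 0 of 9 arms passed an adjusted p of 0.05 in edgeR, as did 0.0% of all features, and 0 had an unadjusted p under 0.05, against 0.765% of all features (5 of 654, and 6 in DESeq2, which called 0). The median log2 fold change of KinaseDead over WildType was -0.14 in the 9 arms and 0.01 over all features. miR-434-5p was at 0.22 (SE 0.23), miR-136-5p at 0.19 (SE 0.29) and the other 7 arms below 0, from -0.25 to -0.05. The miR-434-5p value was 0.11 without KinaseDead sedentary library 4 and 0.33 without WildType sedentary library 2. In KinaseDead sedentary libraries, 6 of 6 values of miR-136-5p were above the WildType sedentary median of 15.5 CPM, although the ranges overlapped, since WildType sedentary library 2 was at 28.2 CPM. In trained mice, 0 of 9 arms passed in edgeR, as did 0.0% of all features, and 0 had an unadjusted p under 0.05, against 0.917% of all features (6 of 654, and 11 in DESeq2, which called 0). The median was 0.06 in the 9 arms and 0.05 over all features. Here miR-136-5p was at -0.42 (SE 0.29), miR-434-5p at -0.18 (SE 0.23) and miR-431-5p at -0.15 (SE 0.24), and the other 6 arms were above 0, up to 0.23. The miR-434-5p value was -0.064 without KinaseDead trained library 6 and -0.37 without KinaseDead trained library 5.

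The members were set beside the rest of the Dlk1-Dio3 domain, the 97 other plus-strand rows between 109544588 and 109747949 of chromosome 12, of which 52 passed the filter. For training in KinaseDead mice the median log2 fold change of those 52 was -0.07. Below 0 were 33 of 52 (63.5%, against 53.2% of all features). For training in WildType mice the median was -0.16, with 37 of 52 below 0 (71.2%, against 51.4%). For training averaged over genotypes it was -0.09, with 39 of 52 below 0 (75.0%, against 52.6%). For genotype in sedentary mice, 37 of 52 were below 0 too (71.2%, against 47.7%). For genotype in trained mice, 24 of 52 were (46.2%, against 41.9%). Of the 52, 0 passed an adjusted p of 0.05 in edgeR or DESeq2 in each of the 6 comparisons, and 0 to 2 had an unadjusted p under 0.05 in edgeR and 0 to 3 in DESeq2. The members made up 45.0% to 57.5% of the summed CPM of the domain, with a median of 48.0%. By group this share had a median of 48.8% in KinaseDead trained (45.1% to 52.5%), 47.8% in KinaseDead sedentary (45.9% to 53.7%), 47.7% in WildType trained (45.0% to 48.6%) and 49.5% in WildType sedentary libraries (46.0% to 57.5%). The sum of the members ran between 1269 and 3207 CPM over the 24 libraries.

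The levels of the arms varied together between libraries of the same group. With the group means removed, log2 levels of 35 of the 36 pairs of tested arms had a Pearson r above 0, with a median of 0.587 over the 24 libraries. The 6 pairs among miR-127-5p, miR-127-3p, miR-434-3p and miR-136-3p, which come from 3 hairpins, had r between 0.876 and 0.935. In the 17 libraries without the lymphocyte-rich ones these 6 ran from 0.855 to 0.940, and in the 7 lymphocyte-rich ones from 0.752 to 0.945. All values share the library and its scaling factor, so a correlation between arms also holds what is common to the library.

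A family of 20 relations was tested with 100000 permutations, 10 between main arms, 4 between the arms of 1 hairpin and 6 between arm ratios. The p-values were adjusted over the 20. Values with group means removed were shuffled over all libraries, not within groups. The removal of the means was not allowed for, so these p-values may be somewhat too small. miR-127-3p and miR-136-3p had r = 0.876 and Spearman's rho = 0.870 (p = 1e-05 each, the smallest these permutations can give, adjusted p = 0.0001), and r was 0.847 without the 2 libraries furthest from the median of miR-127-3p. miR-127-5p and miR-127-3p had r = 0.893 and rho = 0.881 (p = 1e-05 each, adjusted p = 0.0001), and 0.890 without the 2 furthest. miR-434-5p and miR-434-3p had r = 0.594 and rho = 0.621 (permutation p = 0.00229 and 0.0016, adjusted p = 0.00773 and 0.0064), and r was 0.586 without the 2 furthest. By contrast, miR-136-5p and miR-136-3p had r = 0.190 and rho = 0.234 (permutation p = 0.373 and 0.270, adjusted p = 0.439 and 0.318). Their reads cannot be told from those of miR-3071, so these rows may hold arms of more than 1 hairpin. Among main arms, miR-433-3p and miR-434-5p were the least related, with r = 0.136 and rho = 0.0896 (permutation p = 0.523 and 0.676, adjusted p = 0.551 and 0.718).

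miR-136-5p stood apart from the other arms in this matrix. Its r with the other 8 arms ran from -0.284 with miR-433-3p to 0.62 with miR-434-5p, with a median of 0.209. The r with miR-434-5p was 0.650 in the 17 libraries without the lymphocyte-rich ones and 0.849 in those 7. This pair was singled out after the values were seen and is given as a description.

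**Figure D4:**
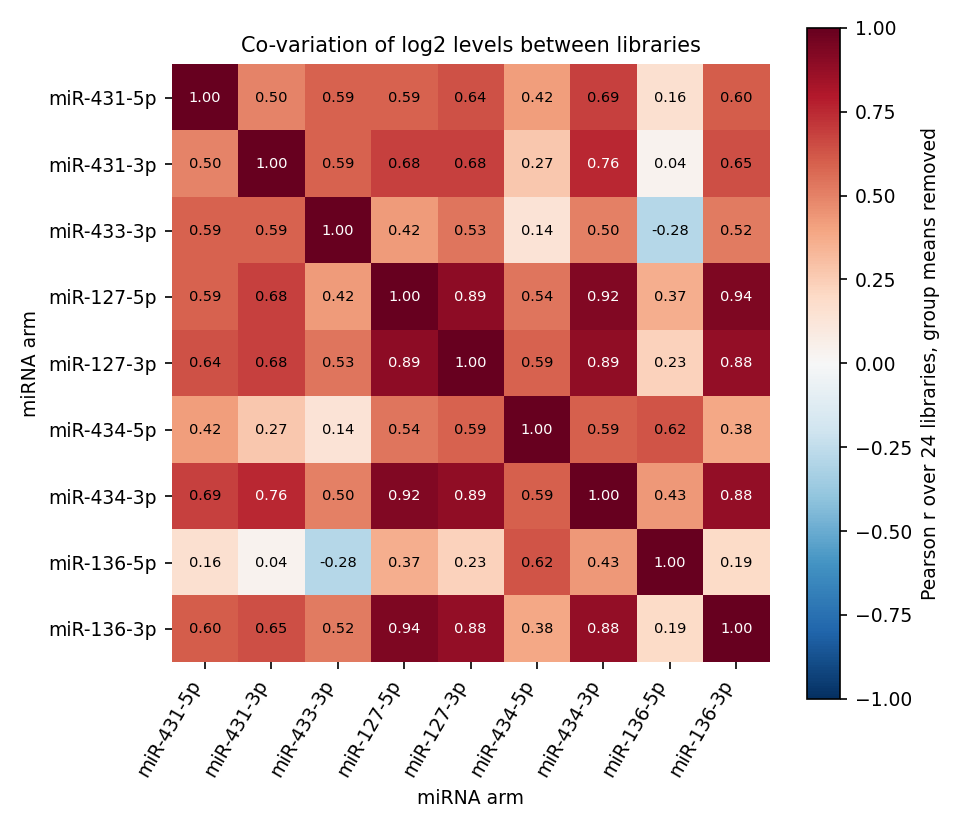
Pearson r between the log2 levels of the 9 tested arms over 24 libraries, with group means removed. Rows and columns are the arms in the order of their hairpins on the chromosome, and red is positive. The block of miR-127-5p, miR-127-3p, miR-434-3p and miR-136-3p lies between 0.876 and 0.935, while miR-136-5p is pale against most arms.

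The log2 ratio of 5p to 3p reads within a hairpin, in which the scaling of a library cancels, was compared with limma over 225 hairpins with both arms measured. For training in KinaseDead mice, 0 of the 4 member hairpins with both arms tested (miR-431, miR-127, miR-434 and miR-136) passed an adjusted p of 0.05, as did 0.0% of all hairpins, and 1 had an unadjusted p under 0.05, against 5.33% of all hairpins (12 of 225). That hairpin was miR-136, with a mean log2 ratio of -3.73 ± 0.720 in KinaseDead trained and -3.03 ± 0.291 in KinaseDead sedentary libraries (SD, n = 6 each). The difference was -0.69 (SE 0.33, unadjusted p = 0.0482, adjusted p = 0.885), and the two-sided exact permutation test over 924 splits gave p = 0.0584 (n = 6 each). In 5 of 6 trained libraries the ratio was below the sedentary median. The ratio of miR-434 differed by -0.38 (SE 0.20, adjusted p = 0.885), with means of 0.72 ± 0.503 in KinaseDead trained and 1.10 ± 0.346 in KinaseDead sedentary libraries. It was -0.25 without KinaseDead trained library 6, and the miR-136 difference was -0.49 without KinaseDead trained library 2. Leaving out KinaseDead trained library 4 gave -0.50 for miR-434 and -0.85 for miR-136. The low values came from few libraries. KinaseDead trained libraries 2 and 6 had ratios of -4.72 and -4.42 for miR-136 and 0.19 and 0.09 for miR-434, the lowest of all 24 libraries for both hairpins. They were also the shallowest of their group, at 2.286 and 3.917 M reads, where the rest had 9.15 M or more. Other libraries below 3.917 M reads had both low and high ratios. KinaseDead sedentary library 3, at 2.608 M reads, had ratios of -2.91 for miR-136 and 0.89 for miR-434. KinaseDead sedentary library 4, at 3.249 M, had -3.36 and 1.56, and WildType sedentary library 3, at 3.458 M, had -3.055 and 1.01. WildType sedentary library 4, the shallowest of all at 1.601 M, had -3.945 and 0.38. WildType sedentary library 5, at 3.47 M, had -4.20 and 0.50. The part of depth in these ratios was not tested.

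For training in WildType mice, 0 of 4 hairpins passed, as did 0.0% of all hairpins, and 0 had an unadjusted p under 0.05, against 7.56% of all hairpins (17 of 225). The miR-136 ratio differed by 0.28 (SE 0.33) and the miR-434 ratio by 0.22 (SE 0.20, exact permutation p = 0.132, n = 6 each). These were 0.13 without WildType sedentary library 5 for miR-136 and 0.15 without WildType sedentary library 4 for miR-434. Leaving out WildType sedentary library 2 gave 0.46 for miR-136 and 0.29 for miR-434. All 6 WildType trained values of miR-434, 0.82 to 1.18, were above the WildType sedentary median of 0.81, while the sedentary values ran from 0.38 to 1.10. The miR-127 ratio differed by 0.13 (SE 0.13) for training in KinaseDead mice and by -0.03 (SE 0.13) for training in WildType mice, on means between -4.21 and -4.04. The miR-431 ratio differed by 0.06 (SE 0.31) for training in KinaseDead mice and by 0.28 (SE 0.31) for training in WildType mice. Between genotypes in sedentary mice 0 of 4 passed, as did 0.0% of all hairpins, and 0 had an unadjusted p under 0.05, against 3.11% of all hairpins (7 of 225). In trained mice 0 of 4 passed, as did 0.0% of all hairpins, and the count at an unadjusted p under 0.05 was 0 in both.

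**Figure D5:**
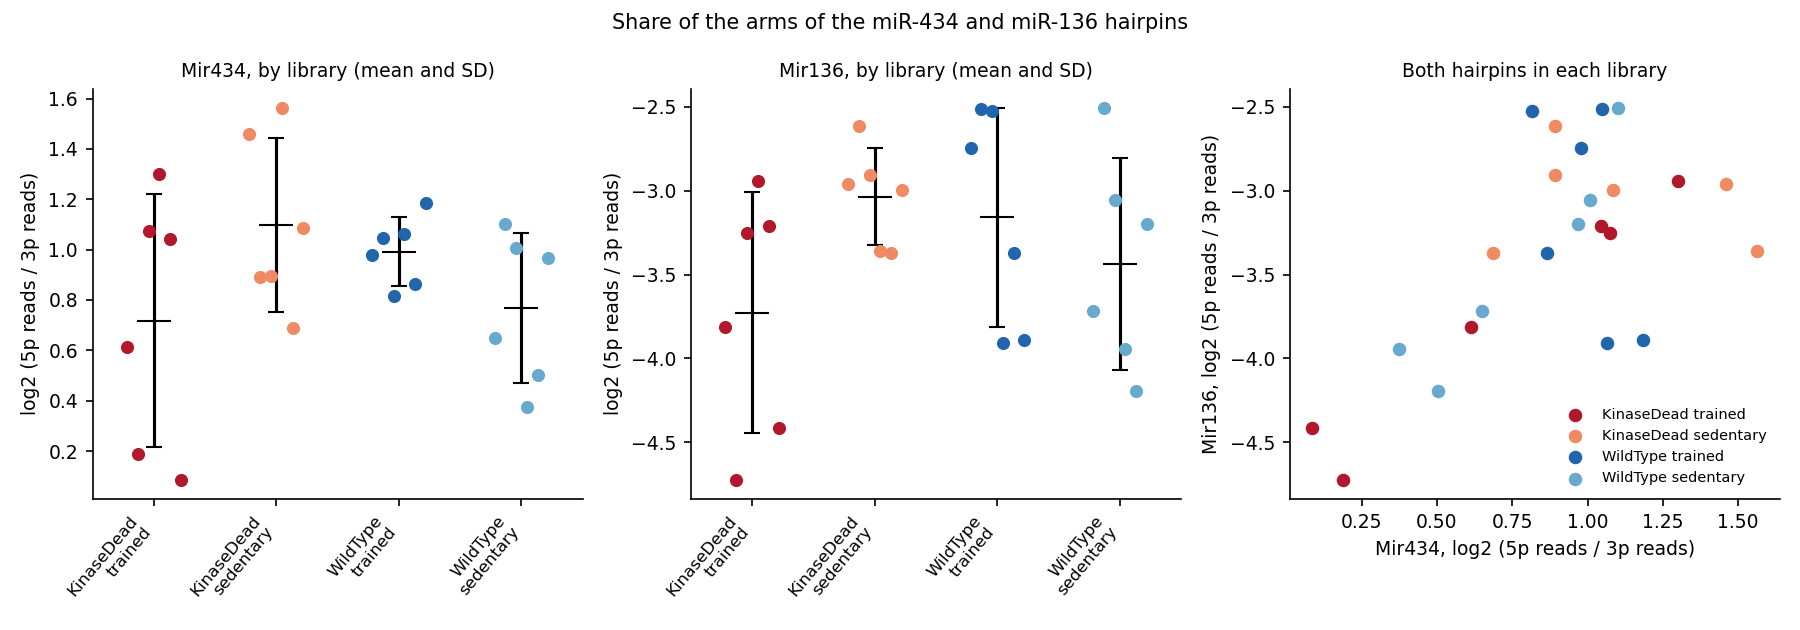
Log2 ratio of 5p to 3p reads of the miR-434 (left) and miR-136 (middle) hairpins by library, with group mean and SD, and both ratios against each other in each library (right). The points at the lower left of the right panel are KinaseDead trained libraries 2 and 6, and the 2 ratios had r = 0.557 with group means removed.

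The ratios of miR-434 and miR-136 moved together between libraries. With group means removed, r was 0.557 and rho 0.511 over 24 libraries (permutation p = 0.00528 and 0.0119, adjusted p = 0.0132 and 0.0216). It was 0.446 without the 2 libraries furthest from the median of miR-434, 0.495 in the 17 libraries and 0.868 in the 7 lymphocyte-rich ones. In these ratios a high value means more of miR-434-5p, the main arm of its hairpin, and more of miR-136-5p, the lesser arm of its own. The other 5 pairs of ratios had adjusted p between 0.118 and 0.886 for r.

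Features elsewhere in the table were ranked by the Pearson r of their log2 level with the log2 summed members, with group means removed, among the 377 features outside the set that averaged at least 10 CPM. The 5 highest were miR-370-3p at 0.913, miR-3071-5p at 0.896, miR-299a-3p and miR-299b-5p at 0.894 each, and miR-541-5p at 0.886. miR-3071-5p had near-equal counts to miR-136-3p, a member, and miR-299a-3p and miR-299b-5p lie on opposite strands of 1 place, so these are fewer than 5 separate measurements. miR-370-3p averaged 19.8 CPM and begins at 109618305 on chromosome 12. Of the 20 highest, 15 were other plus-strand rows of the Dlk1-Dio3 domain, where 22 of the 377 candidates lie. A further 3, miR-3071-5p, miR-299b-5p and miR-3544-3p, were opposite-strand rows of the same domain. They overlap miR-136-3p, which is part of the sum, miR-299a-3p and miR-337-5p by position. The last 2 pairs had equal r, 0.894 and 0.874, so these 3 rows are not separate measurements. The 2 that lay elsewhere were miR-146b-3p at 0.686 on chromosome 19 and miR-183-5p at 0.671 on chromosome 6. In the 17 libraries without the lymphocyte-rich ones the order of these 5 differed, with miR-3071-5p at 0.932, miR-299a-3p and miR-299b-5p at 0.896 each, miR-370-3p at 0.889 and miR-541-5p at 0.875. These correlations share the library and the scaling factor and are given with no test.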

How the data were processed

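The labels' protocols name TRIzol extraction and an NEBNext small RNA kit. The submitters' processing notes name CASAVA 1.8.2, Trim Galore, Bowtie2, featureCounts and the build mm10. The deposited values are raw read counts for each mature miRNA locus. How the authors set strand, overlap and multiple mapping was not stated, and the counts were tested for it: of 25 opposite-strand pairs with 1000 reads or more, 23 matched in their totals to within 1%. Names came from RefSeq (GRCm38.p6) by exact coordinates for 1670 of 2045 rows, and otherwise from the GENCODE M21 hairpin. From the counts, edgeR 4.0.16 (R 4.3.3) gave TMM factors, the filterByExpr filter, CPM and a quasi-likelihood test in 1 fit of 4 groups, and limma 3.58.1 tested log2 arm ratios with a prior count of 0.5. Adapter ligation, which can differ between small RNAs, was not corrected for. DESeq2 1.42.0, other scalings and filters, left-out libraries and plain CPM were alternatives. Scripts were tested on simulated data. The members, lists and tests were chosen with earlier results of these data known. All rows within the bounds are members, and the main arm is the one with the higher mean CPM. The 5 features most like the members were named by r. Replicates were numbered in accession order, as names only. Separate animals are not stated for the libraries of a group, so each p-value measures only the spread between these samples, which may be technical. For any 2 libraries of a group the chi-square of their counts was at least 79.3 per degree of freedom, so none was counted as a repeat of another.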

Additional observations from a re-analysis of the deposited data

Results flagged for a closer look

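Among 52 groups of 6 values (9 arms and 4 arm ratios in 4 groups), 3 held a library whose gap to its nearest neighbour exceeded Dixon's 95% limit as a share of the range of the group. Chance alone gives about 1 in 20 such groups. miR-431-3p was at 4.80 CPM in WildType sedentary library 4, where the other 5 libraries had 1.57 to 2.76 CPM. This is the shallowest library, and its part in the value was not tested. miR-433-3p was at 23.1 CPM in KinaseDead sedentary library 5, where the others had 13.1 to 15.6 CPM, and this is 1 of the 7 lymphocyte-rich libraries. miR-136-5p was at 28.2 CPM in WildType sedentary library 2, where the others had 11.5 to 17.4 CPM.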

How the results depend on the processing

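No member and no arm ratio of a member hairpin was called under any alternative run, and counts of features called stayed at 0 throughout. The count of hairpins called for training in KinaseDead mice ran from 0 to 1 when single libraries were left out. The hairpin was mir-3084-1, no member, called without KinaseDead sedentary library 6 or WildType sedentary library 3 (limma, adjusted p = 0.039 and 0.0462). Dropping opposite-strand rows leaves no value for miR-136-5p. Some values turned direction under the alternatives below, and the cause was not tested. With opposite-strand rows dropped, miR-127-3p was at -0.013 for genotype in trained mice, miR-431-5p at -0.018 for the interaction and miR-434-5p at 0.042 for training in WildType, and with no filter the last was at 0.026. The alternatives using lymphocyte miRNAs were added after the data were seen. With the lymphocyte score as a covariate, miR-431-5p was at -0.061 for the interaction and miR-433-3p at 0.045 for genotype in sedentary mice. Without the 7 lymphocyte-rich libraries, training in KinaseDead mice gave 0.064 for miR-431-5p, 0.21 for miR-431-3p, 0.20 for miR-127-5p and 0.080 for miR-434-3p. Training in WildType then gave 0.050 for miR-434-5p and -0.033 for miR-136-5p, training averaged over genotypes 0.045 for miR-136-3p and 0.024 for miR-431-3p, and genotype in trained mice -0.044 for miR-433-3p. The same setting turned the arm ratio differences of Mir127 (0.041) and Mir136 (-0.044) for training in WildType and of Mir431 (-0.0070) for training in KinaseDead mice, and the r of miR-433-3p with miR-434-5p (-0.102). Without the 2 furthest libraries the r of the Mir127 and Mir136 ratios was -0.104.

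Leaving out 1 library at a time turned these. For training in KinaseDead mice, miR-127-5p ran from -0.25 to 0.062, miR-136-3p from -0.14 to 0.15, miR-431-3p from -0.30 to 0.12, miR-434-3p from -0.23 to 0.0013 and the Mir431 ratio from -0.10 to 0.24. For training in WildType, miR-136-5p ran from -0.060 to 0.28, miR-433-3p from -0.0043 to 0.23, miR-434-5p from -0.13 to 0.094 and the Mir127 ratio from -0.11 to 0.027. For genotype in sedentary mice, miR-127-3p ran from -0.21 to 0.044 and miR-433-3p from -0.14 to 0.086. For genotype in trained mice, miR-127-3p ran from -0.097 to 0.096, miR-136-3p from -0.13 to 0.20 and miR-433-3p from -0.050 to 0.16. For the interaction, miR-431-5p ran from -0.12 to 0.15 and miR-433-3p from -0.028 to 0.24.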
